A study of Mus musculus with 6 samples.

Results

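Proteoglycans are proteins that carry long sulfated sugar chains, and 10 genes that encode them were followed here in mammary glands grafted with wild-type or Adamts18-/- epithelium. They were chosen by symbol from the count table: the small leucine-rich proteoglycans decorin (Dcn), biglycan (Bgn), lumican (Lum), fibromodulin (Fmod), osteoglycin (Ogn) and Prelp, the large matrix proteoglycan versican (Vcan), the transmembrane syndecans Sdc1 and Sdc4, and glypican 3 (Gpc3). All 10 were found among the 34590 symbols listed, and all 10 had enough reads to be tested among 17345 genes. Adamts18 encodes a secreted protease of the extracellular matrix, and the comparison asks which transcripts differ when the grafted epithelium lacks it.

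The libraries came from 3 wild-type (WT) host mice. In each host the left inguinal gland (gland number 4) carried a WT.EGFP+ graft and the right one an Adamts18-/-.EGFP+ graft, so each group has 3 libraries and the genotype and the side of the body cannot be told apart. Both kinds of graft carried Tg(Act-EGFP), which expresses EGFP from an actin promoter. The Adamts18-/- allele, maintained like the EGFP transgene on a C57BL/6JOlaHsd background, lacks the exons encoding the zinc-binding catalytic site, while the fat pad of the host kept its intact Adamts18. Grafts were derived from 3 different donors in 3 independent experiments. The age of the hosts at harvest is not given in the sources used here. The labels call the material GFP+ mammary epithelial cells isolated by flow cytometry, whereas the study's text speaks of profiled glands.

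In a connective tissue, small leucine-rich proteoglycans bind collagen fibrils and shape their width and spacing, and fibroblasts are their main source. Versican binds hyaluronan and swells loose matrix. Syndecans and glypicans sit at the cell surface, where their heparan sulfate chains hold growth factors, and Sdc1 is the syndecan typical of epithelia.

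Total counts lay between 53875123 and 71595924 reads per library, and each of the 10 genes had at least 605 reads in every library. Levels are given as CPM, the reads of a gene scaled to a common library size after TMM scaling. Differences were tested with the quasi-likelihood method of edgeR, in a model that compares the glands within each mouse. A gene was called lower when its fold change was below 0.8, or higher when it was above the inverse of 0.8, together with an unadjusted p below 0.05. By this rule 1.84% of the tested genes were called lower and 1.17% higher in Adamts18-/- grafts, and 0 genes reached an adjusted p below 0.05, against 71 with DESeq2 and 0 with limma-voom. Adamts18 itself was at 3.61, 9.92 and 6.80 CPM in the WT grafts of mice 1, 2 and 3 and at 2.75, 4.87 and 3.29 CPM in the Adamts18-/- grafts. It was lower in every mouse, by 0.83 on the log2 scale (unadjusted p = 0.00922), and reads outside the deleted exons and reads of host cells cannot be told apart in these counts.

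The libraries held transcripts of cells other than epithelium, although the labels call the material sorted epithelial cells. The levels given here are therefore not those of epithelial cells alone. The summed level of 14 fibroblast markers ranged from 8688 to 11605 CPM in WT grafts and from 11186 to 11717 CPM in Adamts18-/- grafts, led by Col3a1 and Col1a2, and 9 adipocyte markers, led by Cfd and Fabp4, summed to 8351 to 20522 CPM over all libraries. The 25 epithelial markers summed to 1950 to 2849 CPM in WT and 1541 to 1952 CPM in Adamts18-/- grafts. Within mice 1, 2 and 3 the sum differed by -0.032, -0.76 and -0.55 on the log2 scale. In mouse 1, 18 of the 25 were higher in the Adamts18-/- graft, and in mice 2 and 3 all 25 were lower. In the full comparison 8 of the 25 were called lower (Elf5, Krt7, Krt8, Krt14, Krt18, Krt19, Spint1 and St14), or 0 with scaling to these markers themselves. Of 10 myoepithelial markers, 8 were called lower (Acta2, Cnn1, Krt14, Krt17, Myh11, Mylk, Oxtr and Trp63), and of 12 luminal markers 6 were (Elf5, Foxa1, Krt8, Krt18, Krt19 and Prlr). The number of epithelial markers called lower was 24 without mouse 1, 1 without mouse 2 and 4 without mouse 3. Skeletal muscle markers, led by Myh4 and Acta1, summed to 272, 791 and 2582 CPM in the WT grafts and to 10173, 10009 and 1735 CPM in the Adamts18-/- grafts of mice 1, 2 and 3, and 0 of these 8 genes were called in the full comparison, although DESeq2 called 7 of them higher, limma-voom 1, and edgeR without mouse 3 all 8. Of the 14 fibroblast, 9 adipocyte, 8 endothelial and 10 leukocyte markers 0 were called or had an unadjusted p below 0.05 in edgeR, while DESeq2 called 1 fibroblast marker (Col3a1) and limma-voom 2 leukocyte markers higher. No marker of any of these lists was at 0 in all libraries. In bulk RNA, fewer cells of a type and less RNA per cell cannot be told apart, and the part of cell composition in the results below was not tested.

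The genes spanned more than 2 orders of magnitude. Divided by the length of their exons, the mean over the 6 libraries was 381 CPM per kb for Dcn, 179 for Lum, 123 for Ogn, 118 for Prelp, 54.0 for Gpc3, 52.8 for Bgn, 52.4 for Sdc4, 19.7 for Sdc1, 4.14 for Fmod and 2.81 for Vcan. Dcn ranked 68 of the 15441 tested genes with a single gene model, close to Col3a1 at 367 CPM per kb and above the luminal keratin Krt18 at 211. The closeness to Col3a1 depends on the exon lengths used, 5838 bases for Dcn and 9816 for Col3a1. Before division by length, the WT mean was 2230 CPM for Dcn and 3075 CPM for Col3a1. Sdc1 ranked 2410, below Epcam at 61.6 CPM per kb, and Vcan ranked 9595. Within a library the order Dcn, Lum, Ogn held in all 6. Over all libraries the ranges of adjacent genes overlapped from Dcn down to Sdc4. Ogn was above Prelp in 3 of 6 libraries, Gpc3 above Bgn in 3 and Bgn above Sdc4 in 2, so these neighbours did not differ beyond their spread. Below them, Sdc1, Fmod and Vcan did not overlap with the gene above. The place of Bgn depended on the length used: with its longest transcript in place of all exons it was at 121 CPM per kb and took the fourth place.

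**Figure D1:**
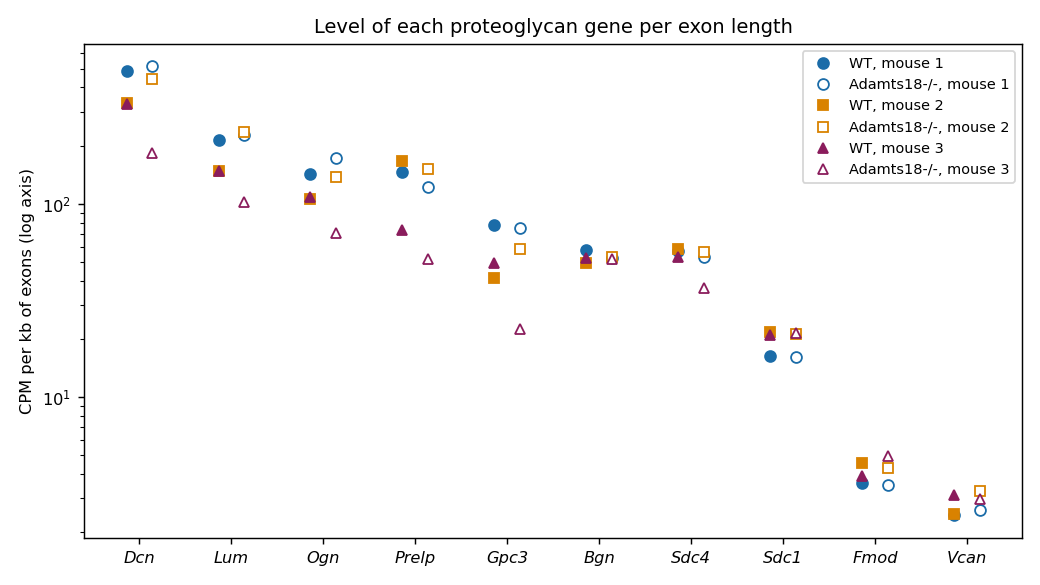
Level of each proteoglycan gene in CPM per kb of exons (log axis), 1 point per library, with WT and Adamts18-/- grafts marked separately. Dcn is highest with a mean of 381 and Vcan lowest with 2.81, and the ranges of Ogn and Prelp overlap.

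No member was called in either direction (0 of 10 lower, 0 of 10 higher). The count with an unadjusted p below 0.05 was also 0 in edgeR, beside 3.86% of all tested genes, and it was 1, for Prelp, with DESeq2 and with limma-voom, although the fold change of Prelp did not pass the threshold with either of these. The median log2 fold change of the 10 genes was -0.013, beside 0.00065 over all tested genes, with 6 below 0 and 4 above. In none of the 10 did the WT and Adamts18-/- libraries separate without overlap, which 4.94% of all tested genes did in either direction. Prelp and Sdc4 were lower in the Adamts18-/- graft of every mouse and 0 members were higher in every mouse, against 12.7% of all tested genes lower and 10.8% higher in all 3. These tests do not show that the genotypes had equal levels: the intervals of the single genes, given below, bound the difference.

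Dcn, the most abundant of the set, binds collagen fibrils and growth factors. It was at 2847, 1929 and 1913 CPM in the WT grafts of mice 1, 2 and 3 and at 2998, 2596 and 1069 CPM in their Adamts18-/- grafts. The groups overlapped, and the Adamts18-/- graft of mouse 3 was the lowest library. Means were 2230 ± 535 CPM (SD, n = 3) in WT and 2221 ± 1018 CPM (SD, n = 3) in Adamts18-/- grafts. The fitted log2 fold change was -0.11 (SE 0.28, 95% confidence interval -0.84 to 0.62, unadjusted p = 0.712). Within mice 1 and 2 Dcn was higher in the Adamts18-/- graft, by 0.075 and 0.43 on the log2 scale, and within mouse 3 the difference was -0.84. Without mouse 3 the fitted value changed sign, to 0.26 (unadjusted p = 0.233).

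Lum, which regulates the assembly of collagen fibrils, and Ogn, a small proteoglycan of connective tissue, had the same shape. Lum was at 523, 363 and 364 CPM in WT and at 554, 573 and 249 CPM in Adamts18-/- grafts. Ogn was at 365, 270 and 279 CPM in WT and at 441, 352 and 181 CPM in Adamts18-/- grafts. Both were higher in the Adamts18-/- graft in mice 1 and 2 and lower in mouse 3, and for both the groups overlapped. The fitted log2 fold change was 0.065 for Lum (SE 0.25, interval -0.58 to 0.71, unadjusted p = 0.803). For Ogn it was 0.012 (SE 0.23, interval -0.58 to 0.60, unadjusted p = 0.961). Without mouse 3 Ogn passed the call as higher, with a log2 fold change of 0.33 (unadjusted p = 0.0240), in a comparison in which 3.34% of all genes were called higher.

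Bgn, a close relative of decorin, was the steadiest in the Adamts18-/- grafts. It was at 352, 301 and 320 CPM in WT and at 320, 322 and 317 CPM in Adamts18-/- grafts. The Adamts18-/- libraries lay inside the WT range, with an SD of 2.78 CPM against 25.5 CPM in WT (n = 3 each). The fitted difference on the log2 scale was -0.019 (SE 0.093, interval -0.26 to 0.23, unadjusted p = 0.849). Unlike Dcn, Bgn differed by only -0.017 between the grafts of mouse 3.

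Fmod, which binds collagen and was the rarest small leucine-rich member, was at 11.9, 15.1 and 12.9 CPM in WT and at 11.6, 14.2 and 16.5 CPM in Adamts18-/- grafts. Mice 1 and 2 had slightly lower values in the Adamts18-/- graft and mouse 3 a higher one, and the groups overlapped. On the log2 scale the fold change was 0.074 (SE 0.13, interval -0.27 to 0.41, unadjusted p = 0.596).

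Prelp, which links collagen to heparan sulfate in basement membranes, came closest to the call. It was at 526, 601 and 266 CPM in the WT grafts of mice 1, 2 and 3 and at 442, 548 and 186 CPM in the Adamts18-/- grafts. Each Adamts18-/- graft was below the WT graft of its own mouse, by 0.25, 0.13 and 0.51 on the log2 scale. The groups overlapped, also between mice 1 and 2, and mouse 3 was low on both sides. The log2 fold change was -0.30 (SE 0.11, interval -0.60 to 0.00042, unadjusted p = 0.0502, adjusted p = 0.987), a fold of 0.812 against the threshold of 0.8. It was called lower with scaling to the library size alone (-0.33, unadjusted p = 0.0254), where 2.1% of all genes were called lower, and without mouse 2 (-0.38, unadjusted p = 0.0402), where 1.22% were, and the unadjusted p was 0.626 in a model that ignores the pairing of glands. Of its exon bases, 9.68% are also covered by a gene model on the opposite strand, and the strand setting of the counting is not given in the sources used here.

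**Figure D2:**
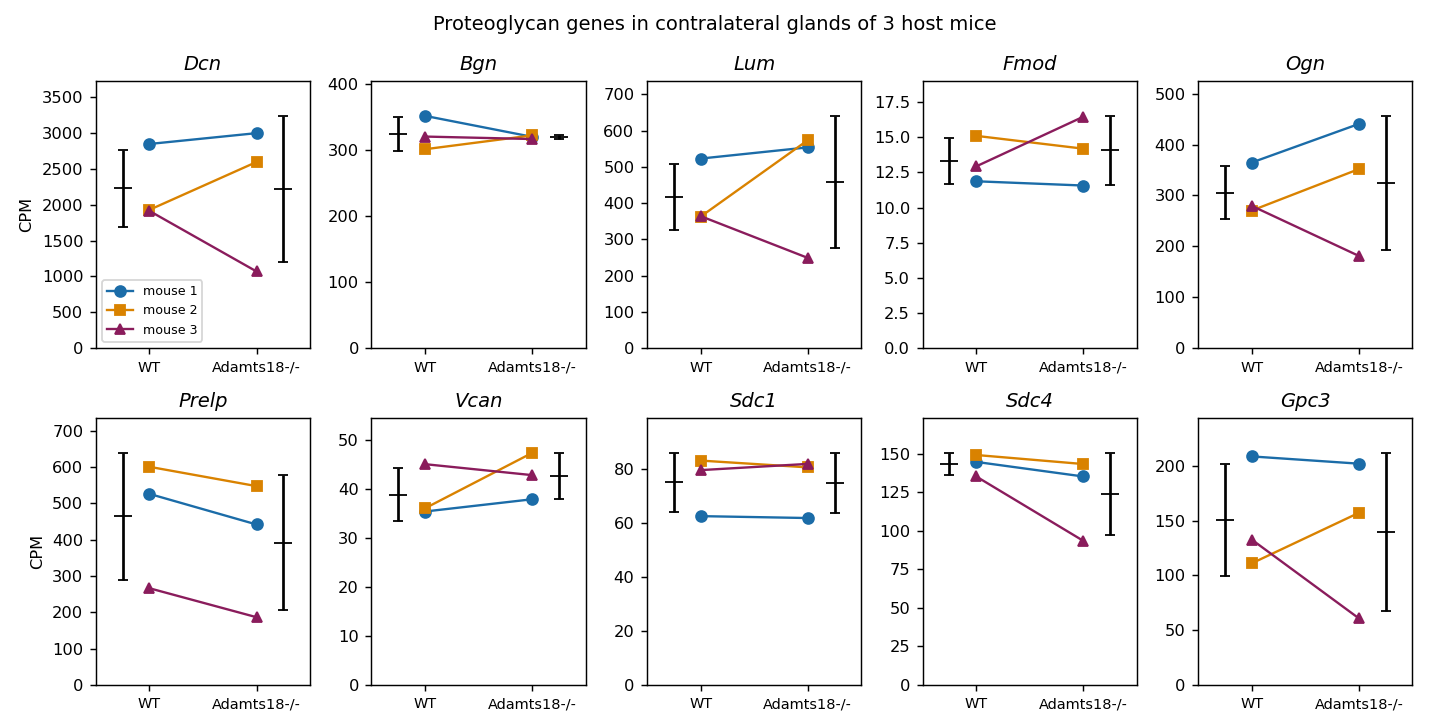
CPM of each of the 10 genes (linear axis from 0), 1 point per library, with lines joining the WT and Adamts18-/- grafts of the same mouse and bars showing the mean and SD of each group of 3. The lines of mouse 3 descend for Dcn, Lum, Ogn, Prelp, Sdc4 and Gpc3, and those of Sdc1 are nearly flat.

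Vcan, the large chondroitin sulfate proteoglycan of loose matrix, was at 35.3, 36.0 and 45.0 CPM in WT and at 37.8, 47.3 and 42.7 CPM in Adamts18-/- grafts. It was higher in the Adamts18-/- graft of mice 1 and 2 and lower in that of mouse 3, and the groups overlapped. Its log2 fold change was 0.14 (SE 0.11, interval -0.15 to 0.43, unadjusted p = 0.271). Without mouse 3 it was 0.25 (unadjusted p = 0.0467), which is below the fold threshold of the call, and without mouse 2 it was 0.012 (unadjusted p = 0.915).

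The syndecans differed from each other in how they varied. Sdc1 was at 62.5, 83.0 and 79.5 CPM in WT and at 61.8, 80.5 and 81.8 CPM in Adamts18-/- grafts of mice 1, 2 and 3. Both glands of mouse 1 were below all 4 others, and within each mouse the grafts were nearly equal. The log2 fold change was -0.0065 (SE 0.063, interval -0.17 to 0.16, unadjusted p = 0.922), the narrowest interval of the set. In the same libraries 8 of the 25 epithelial markers were called lower. They included the luminal keratins Krt8, Krt18 and Krt19, with log2 fold changes of -0.43, -0.52 and -0.62. All 25 had fitted values below 0, with a median of -0.39. Of the 12 luminal markers 6 were called lower, with 10 fitted values below 0 and 2 above. When the libraries were scaled to the epithelial markers, which shifted the median of all genes to 0.40, the log2 fold change of Sdc1 was 0.39 (unadjusted p = 0.292).

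Sdc4, a syndecan of cell adhesion sites, was at 145, 149 and 135 CPM in WT and at 135, 143 and 93.4 CPM in Adamts18-/- grafts. It was lower in the Adamts18-/- graft of each mouse, by 0.098, 0.058 and 0.53 on the log2 scale, and the groups overlapped. Its fitted log2 fold change was -0.23 (SE 0.12, interval -0.54 to 0.084, unadjusted p = 0.117). Without mouse 3 it was -0.070 (unadjusted p = 0.430).

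Gpc3, a glypican anchored to the membrane by a lipid, was at 209, 111 and 133 CPM in WT and at 202, 157 and 60.7 CPM in Adamts18-/- grafts. Its highest library was 3.44 times its lowest, the widest range of the set, and the grafts of mouse 3 differed by -1.13 on the log2 scale while those of mouse 2 differed by 0.50 in the other direction. The log2 fold change was -0.22 (SE 0.33, interval -1.07 to 0.64, unadjusted p = 0.535), and it changed sign without mouse 3, to 0.23 (unadjusted p = 0.171).

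**Figure D3:**
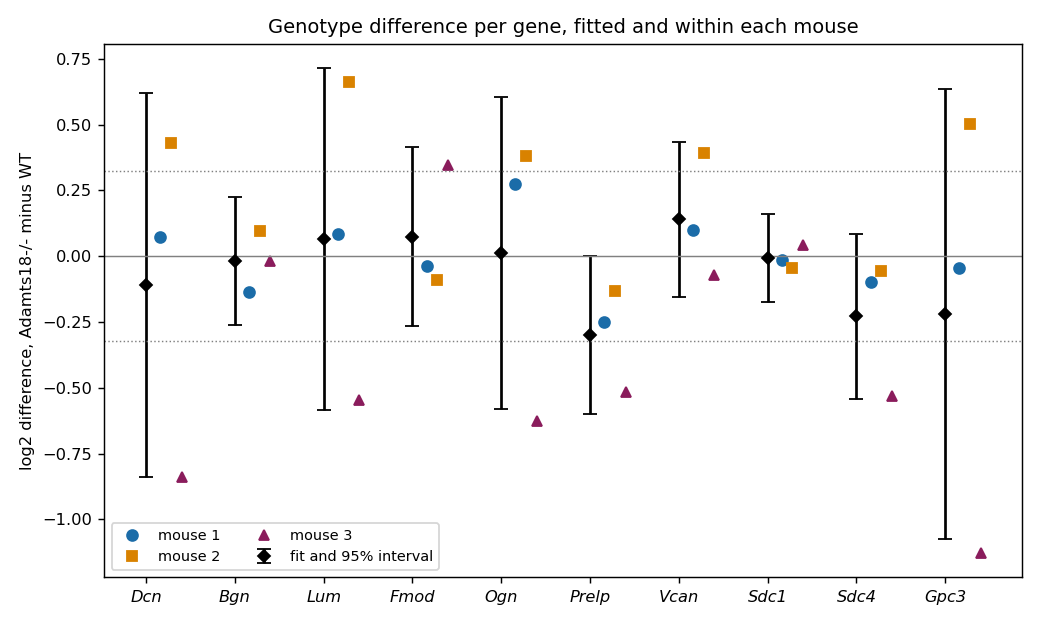
Log2 difference between the Adamts18-/- and WT grafts for each gene, showing the fitted value with its 95% confidence interval and the difference within each of the 3 mice. Every interval includes 0, that of Prelp by the least margin, and mouse 3 lies at -1.13 for Gpc3 and at -0.84 for Dcn.

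The genes differed in how much of their variation lay between mice. The mouse has 2 of the 5 degrees of freedom among the libraries and the genotype 1. Values without any structure would give shares of 40% and 20% on average. With 6 libraries the share of a single gene scatters widely around these averages, so the shares are a description only. Of the sum of squares of log2 CPM over the 6 libraries, the mouse accounted for 99.0% for Sdc1, 92.4% for Prelp and 70.8% for Dcn. The lowest shares, close to that average, were 46.0% for Bgn and 45.6% for Vcan. The share of the genotype was highest for Sdc4, at 25.2%, and for Vcan, at 18.7%, and it was 5.91% or less for the other 8 genes. The median within-mouse difference of the 10 genes was -0.027 in mouse 1, 0.24 in mouse 2 and -0.52 in mouse 3, where the median of all tested genes lay between -0.0098 and -0.0052. In mouse 3, 8 of the 10 were below 0, and only Fmod and Sdc1 were above.

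Fibroblast markers other than the collagens mostly had the sign of Dcn in mouse 3. There 10 of the 14 were lower in the Adamts18-/- graft, with a median of -0.33 on the log2 scale, down to -1.45 for Pi16 and -1.56 for Fbln1, which were chosen after their values were seen. The 4 that were higher were Col1a1, Col1a2, Col3a1 and Thy1, at 0.24, 0.15, 0.81 and 0.57. The sum of the 14 markers, in which the abundant collagens weigh most, was at 0.20, and the sum of the 10 proteoglycans at -0.63. In mouse 2 all 14 markers were higher in the Adamts18-/- graft, with a median of 0.27, and in mouse 1 8 of the 14 were lower, with a median of -0.0078. The glands of mouse 3 differed by 0.97 in the summed leukocyte markers, led by Csf1r and Ptprc, and by -0.36 in the adipocyte sum. They differed by -0.23 in the sum of endothelial markers, led by Pecam1 and Cdh5. Their part in the values of the proteoglycans was not tested.

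Profiles were compared over the 6 libraries as the root mean square difference of log2 CPM after each gene's mean was subtracted. As a description, the closest pairs were Fmod and Sdc1 at 0.0955, Lum and Ogn at 0.121, Dcn and Ogn at 0.125, Dcn and Lum at 0.135 and Dcn and Gpc3 at 0.139, and the farthest was Fmod and Gpc3 at 0.774. Among 12225 genes with a mean of at least 5 CPM, the nearest to Dcn were Pf4 (0.018), Il1rl2 (0.037) and Cd109 (0.053). Those near Gpc3 included Il1r2 (0.068) and Timp2 (0.089). For Sdc4 they were Yap1 (0.023), H2afy2 (0.030) and Slc29a1 (0.036). For Sdc1 they were Ears2 (0.046), 9430008C03Rik (0.061) and Ahr (0.062), and for Vcan Sc4mol (0.066), Hsd17b7 (0.066) and Pcdh17 (0.076). With 6 libraries and this many genes, some close profiles arise in any data set.

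Several small leucine-rich genes lie beside each other in the genome, and their within-mouse differences can be set side by side. In the RefSeq annotation of GRCm38.p6, Dcn and Lum are adjacent on chromosome 10, followed by Kera and Epyc. Ogn follows Ecm2, Aspn and Omd on chromosome 13, Prelp lies between Optc and Fmod on chromosome 1, and Gpc3 follows Gpc4 on chromosome X. Aspn and Omd had the same signs as Ogn in every mouse: 0.30, 0.35 and -0.65 for Aspn and 0.31, 0.60 and -0.90 for Omd in mice 1, 2 and 3. Ecm2, the neighbour beyond them, was at -0.17, 0.31 and -0.28, with the opposite sign in mouse 1. Without mouse 3 Aspn and Omd were called higher together with Ogn. The signs of Ogn were not particular to its neighbours. Dcn and Lum, on another chromosome, had them too, as did the fibroblast marker Dpt (0.073, 0.31 and -0.55). In mouse 1, however, 8 of the 14 fibroblast markers were below 0. The share of all genes with these signs was not counted, and the part of position was not tested. Gpc4 had the signs of Gpc3, at -0.068, 0.076 and -0.43, with smaller differences than Gpc3 in mice 2 and 3 but not in mouse 1. Prelp and Fmod, although adjacent, had opposite signs in mouse 3, at -0.51 and 0.35. Kera and Epyc were rare, at 5.41 CPM or less in every library, and were below 0 in mouse 1, where Dcn and Lum were above.

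**Figure D4:**
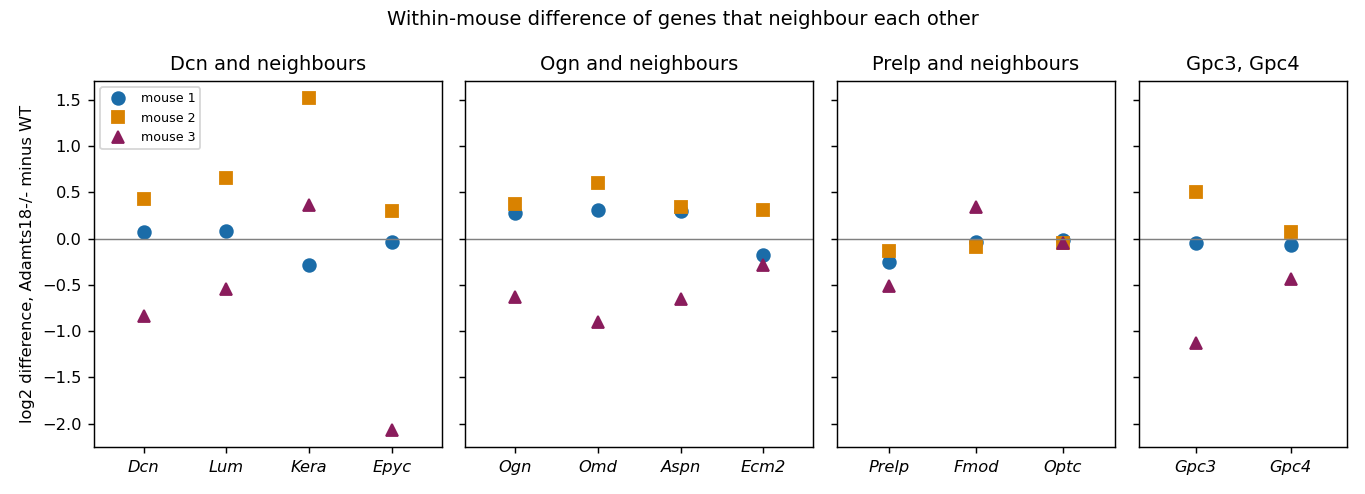
Log2 difference between the Adamts18-/- and WT graft of each mouse for genes that neighbour each other, in 4 panels, with 1 symbol per mouse. Ogn, Omd and Aspn are above 0 in mice 1 and 2 and below 0 in mouse 3, whereas Prelp and Fmod have opposite signs in mouse 3.

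The sequences before the start of Prelp and Fmod, neighbours with different values, and of the 2 syndecans are shown for comparison. They are the 250 bases before the start in RefSeq (GRCm38.p6), written 5' to 3' on the strand of the gene, with each CG in capitals. The windows are chr1:133921402-133921651 (minus strand) for Prelp, chr1:134037004-134037253 (plus strand) for Fmod, chr12:8771146-8771395 (plus strand) for Sdc1 and chr2:164443189-164443438 (minus strand) for Sdc4.
Prelp: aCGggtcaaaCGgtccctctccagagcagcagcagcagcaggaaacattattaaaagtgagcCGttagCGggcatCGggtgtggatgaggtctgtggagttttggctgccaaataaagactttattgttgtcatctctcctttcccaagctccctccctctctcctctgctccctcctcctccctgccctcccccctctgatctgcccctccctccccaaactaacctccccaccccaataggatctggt
Fmod: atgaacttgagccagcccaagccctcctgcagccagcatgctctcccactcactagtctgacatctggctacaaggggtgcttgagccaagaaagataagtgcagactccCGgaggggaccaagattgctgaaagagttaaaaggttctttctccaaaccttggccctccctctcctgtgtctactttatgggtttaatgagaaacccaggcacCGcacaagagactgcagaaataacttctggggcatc
Sdc1: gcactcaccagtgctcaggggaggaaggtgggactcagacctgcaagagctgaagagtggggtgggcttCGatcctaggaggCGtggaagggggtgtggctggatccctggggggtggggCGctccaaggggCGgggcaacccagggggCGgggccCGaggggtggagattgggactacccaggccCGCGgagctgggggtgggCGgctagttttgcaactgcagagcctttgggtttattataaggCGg
Sdc4: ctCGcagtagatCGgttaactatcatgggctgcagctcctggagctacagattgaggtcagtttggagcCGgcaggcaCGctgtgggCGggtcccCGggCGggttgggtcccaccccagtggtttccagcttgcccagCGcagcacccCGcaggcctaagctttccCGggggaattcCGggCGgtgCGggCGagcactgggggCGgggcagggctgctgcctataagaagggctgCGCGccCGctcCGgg
Prelp had 5 CG and Fmod 2, while Sdc1 had 10 and Sdc4 19, against a median of 6 over 32851 windows of the same length. Of the 8 members with a window (Bgn, Fmod, Gpc3, Ogn, Prelp, Sdc1, Sdc4 and Vcan), Gpc3 had the most CG, 25, more than 89.3% of all windows. The letters GGGCGG, the GC box, were found on either strand in the windows of Sdc1, Sdc4, Vcan, Gpc3 and Bgn and in 32.7% of all windows. The exact letters TATAAA of the TATA box occurred in the window of Ogn alone among the 8 and in 12.4% of all windows. In Ogn they lay at the end of the window farthest from the start, and variants of these letters were not sought. GGAATG, the core letters bound by TEAD factors, likewise occurred in Ogn alone and in 12.6% of all windows. These matches describe the letters of the windows only. As a check, the bases just after each start were sought near the beginning of GENCODE M21 transcripts. They were found for Prelp, Fmod and Sdc1 but not for Sdc4, Bgn, Gpc3, Ogn and Vcan, so the starts of the latter are less sure.

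Related genes were counted in the same comparison. Of 12 other small leucine-rich genes 11 were tested and 0 were called, with a median log2 fold change of -0.036 and 0 at an unadjusted p below 0.05 with edgeR, DESeq2 or limma-voom. Of 11 other cell surface proteoglycan genes, led by Tgfbr3 and Nrp1, 10 were tested and 0 were called by any of the 3 tools, with a median of -0.064. Among 7 hyalectan and link protein genes, of which Vcan's relatives are mostly nervous tissue or cartilage proteins, 3 were tested. Hapln3, a link protein, was called lower (-0.54, unadjusted p = 0.0341) and Hapln4 higher (0.70, unadjusted p just under 0.05), both at 2.67 CPM or less in every library, and DESeq2 called neither. Both lost the call with any 1 of the mice left out, where the unadjusted p of Hapln3 was 0.0941, 0.152 and 0.0659 without mice 1, 2 and 3.

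Among 8 tested genes of basement membrane and other proteoglycans, led by Hspg2 (perlecan) and Agrn (agrin), 1 was called. Spock2, a secreted proteoglycan that binds calcium, was at 41.7, 51.5 and 31.3 CPM in WT and at 30.1, 40.8 and 20.6 CPM in Adamts18-/- grafts. It was lower in every mouse, by 0.47, 0.34 and 0.60 on the log2 scale, although the groups overlapped. The log2 fold change was -0.47 (SE 0.085, unadjusted p = 0.00323), and it stayed called lower with any 1 of the mice left out. With scaling to the epithelial markers it was -0.069 (unadjusted p = 0.847), and in a model that ignores the pairing the unadjusted p was 0.186.

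The enzymes that build the sugar chains were mostly not called. Of 7 genes that make the linker of the chain 0 were called, with limma-voom calling 1 (Acpl2) lower, and of 16 that make chondroitin and dermatan sulfate 0 were called by any of the 3 tools. Of 17 tested genes of heparan sulfate synthesis 1 was called: Hs3st5, a sulfotransferase, had 4, 5 and 12 reads in WT and 33, 42 and 12 reads in Adamts18-/- grafts. It was higher in mice 1 and 2 only, with a log2 fold change of 2.05 (SE 0.78, unadjusted p = 0.0488), and it lost the call without mouse 1 and without mouse 2. Without mouse 3 it was 3.23 (unadjusted p = 0.000484, adjusted p = 0.0374). The skeletal muscle markers were higher in the same 2 mice, by 5.23 and 3.66 on the log2 scale of their sum, and their part in this value was not tested. Of 3 tested genes that edit or cleave heparan sulfate and 7 Adamts proteases known to cleave proteoglycans, 0 were called by any of the 3 tools.

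**Figure D5:**
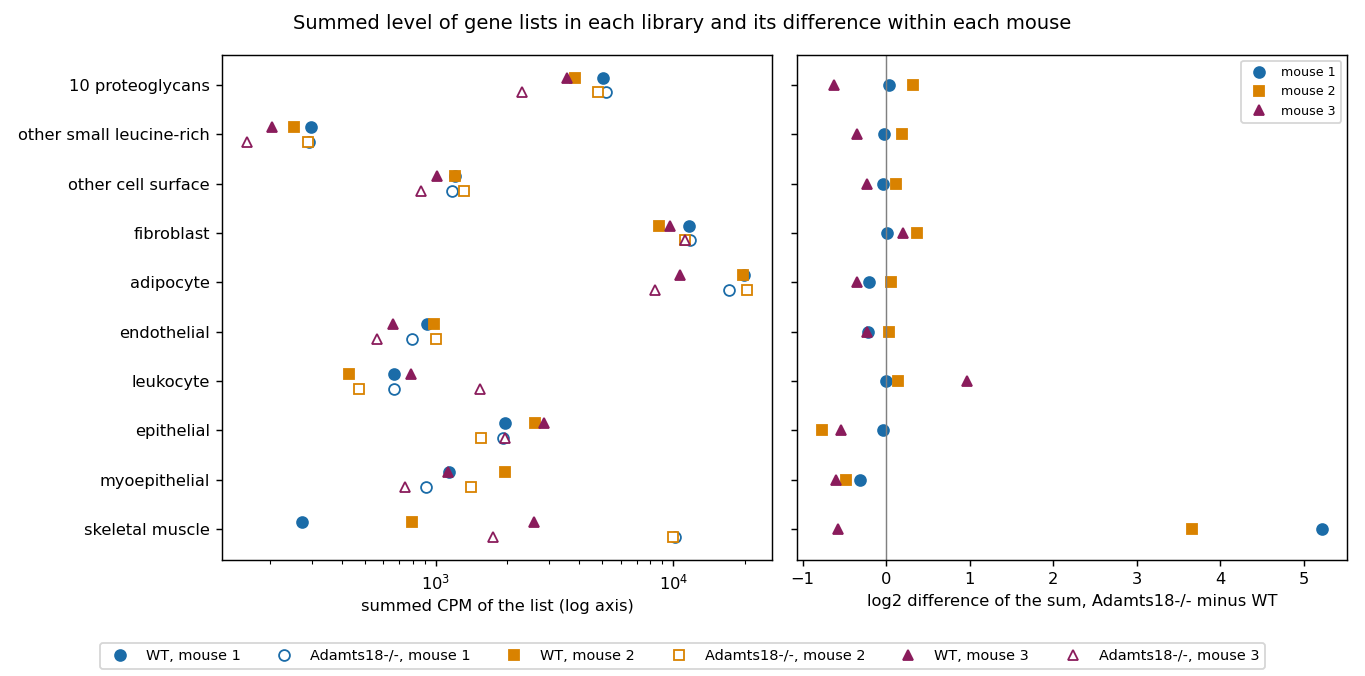
Summed CPM of gene lists in each library (left, log axis) and the log2 difference of that sum between the Adamts18-/- and WT graft of each mouse (right). The sum of the 10 proteoglycans is at -0.63 in mouse 3, where the fibroblast sum is at 0.20 although 10 of its 14 genes are below 0, and the skeletal muscle sum is at 5.23 in mouse 1 and 3.66 in mouse 2.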

How the data were processed

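The deposited values are raw counts of reads for each gene symbol, with 1 column per gland and 0 columns of other samples. The submitters' processing notes name bcl2fastq 2.18, TopHat2 2.0.11, featureCounts 1.6.2, edgeR and the build mm9; the annotation and the handling of strand and of reads with several matches are not given in the sources used here. Differential expression was computed with edgeR 4.0.16 under R 4.3.3 (TMM factors, filterByExpr, quasi-likelihood test, design mouse plus genotype), with Benjamini-Hochberg adjustment over 17345 genes. The fold thresholds (0.8 and its inverse) and the unadjusted p are those of the study. Mouse numbers in the labels pair the glands, and same-numbered glands deviated together (correlations 0.512, 0.505 and 0.639). The p-values weigh the genotype difference against how that difference varies between 3 hosts, with variance estimates that borrow from other genes. Differences in level between hosts are taken up by the mouse term. CPM used the TMM factors, log2 CPM a prior count of 2, and intervals 95%. Totals of 53875123 to 71595924 give each of these genes at least 605 reads per library, so precision is set mainly by the spread between glands.

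Lengths came from GENCODE M21 and positions and promoters from RefSeq, both GRCm38, so no coordinates were taken from the mm9 counts. Of the listed symbols, 5 were found under older names. The genes named are all members, every listed gene past the call, Adamts18, the 3 nearest profiles of Dcn, Vcan, Sdc1, Sdc4 and Gpc3, and the 2 most abundant genes of each cell type list; some genes that this rule or a count would name are not reported here; other neighbours are named for their position, and relatives that changed with a setting for that change. The members and lists were chosen with earlier results of these data known. The scripts were tested on simulated data. Alternatives were DESeq2 1.42.0, limma-voom (limma 3.58.1), other scalings and filters, no block, and leaving out each mouse.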

Additional observations from a re-analysis of the deposited data

How the results depend on the processing

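No member was called in either direction, except that 1 was called lower with library size scaling (Prelp), and leaving out 1 mouse gave 0 to 1 lower (Prelp without mouse 2) and 0 to 1 higher (Ogn without mouse 3). Of the 130 values of members under the alternatives, 110 kept their direction and side of the threshold, 3 passed it and 17 changed sign; the cause was not tested. Scaling to the epithelial markers shifts the median of all genes to 0.40. It gave log2 fold changes of 0.28 for Dcn, 0.38 for Bgn, 0.10 for Prelp, 0.39 for Sdc1, 0.17 for Sdc4 and 0.17 for Gpc3, and a median of 0.39 over the members. Krt7 was at 0.011, Mylk at 0.058 and Trp63 at 0.032. Krt7 is 1 of the markers that set this scaling, which draws their values toward 0. With it, 10 of the 25 epithelial and 7 of the 10 myoepithelial markers were below 0. Sdc1 was at 0.0054 with scaling to the fibroblast markers, and Ogn at -0.019 with limma-voom and -0.014 with library size scaling. Leaving out each mouse gave -0.38 to 0.26 for Dcn, -0.077 to 0.039 for Bgn, -0.23 to 0.38 for Lum, -0.056 to 0.16 for Fmod, -0.18 to 0.33 for Ogn, 0.012 to 0.25 for Vcan, -0.38 to -0.18 for Prelp, -0.32 to -0.070 for Sdc4, -0.022 to 0.012 for Sdc1, -0.59 to 0.23 for Gpc3 and -0.20 to 0.11 for the median of the members. Over all genes, 319 were called lower and 203 higher. Lower calls numbered 125 with no replicate block, where the pairing by mouse is dropped, 24 with epithelial and 136 with fibroblast scaling; higher calls numbered 340 with DESeq2, 345 with limma-voom, 1120 with epithelial and 340 with fibroblast scaling, and 352 with no filter on low counts. At an adjusted p below 0.05 in place of the call both were 0; the genes at that level numbered 71 with DESeq2, 261 with epithelial scaling, 1 with fibroblast scaling and 268 without mouse 3, and 0 with the other alternatives. Leaving out each mouse gave 214 to 481 lower and 182 to 581 higher calls. Without the block 0 members were called, and Spock2 and Hapln3 lost their calls. Hapln3 also lost it with fibroblast scaling (unadjusted p = 0.134). Hapln4, with an unadjusted p just under 0.05, lost its call under most alternatives. Depth does not limit the members, which had at least 605 reads in every library; it limits Hs3st5, Hapln4 and other genes with few reads.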

Other observations

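Hyaluronan, the chain that versican binds, is made by Has enzymes and cut by hyaluronidases. Of 8 tested genes of its synthesis and turnover, 1 was called: Hyal3, of the hyaluronidase family, was at 1.82, 1.94 and 1.79 CPM in the WT grafts of mice 1, 2 and 3 and at 1.28, 1.22 and 1.16 CPM in the Adamts18-/- grafts. All Adamts18-/- libraries were below all WT libraries, and the log2 fold change was -0.60 (SE 0.18, unadjusted p = 0.0216). DESeq2 did not call it, and leaving out any 1 of the mice ended the call. Tmem2, a cell surface hyaluronidase chosen here after its values were seen, was at 107, 106 and 146 CPM in WT and at 88.3, 86.0 and 132 CPM in Adamts18-/- grafts. It was lower in every mouse (log2 fold change -0.24, unadjusted p = 0.0219), which is less than the fold threshold. Has2, a hyaluronan synthase chosen in the same way, was higher in every mouse, by 0.45, 1.24 and 0.18 on the log2 scale (log2 fold change 0.62, unadjusted p = 0.0511), and DESeq2 and limma-voom called it higher. The other synthases did not share this. Has3 was lower in every mouse (log2 fold change -0.32, unadjusted p = 0.129 in edgeR). Has1 was at 0.54, 2.26 and -1.61 within mice 1, 2 and 3. Within the same mice 9930013L23Rik (Cemip), on the same list as Tmem2, was at 0.45, -0.24 and 1.11. Of the 8 genes, 5 had a fitted value below 0 and 3 above.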
